A study of Mus musculus with 20 samples.

Results

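Promoters in 2 stretches made up mostly of olfactory receptor genes were examined for DNA methylation in single mouse blastocysts. They were chosen by position alone, as the promoter windows that start on chromosome 2 between 85100000 and 89900000 or on chromosome 9 between 37600000 and 39900000 (build GRCm39). This gave 305 windows on chromosome 2 and 137 on chromosome 9, together 442 of the 54034 windows in the deposited table (0.818%). Each window is 3500 bp long and is named by position. The table holds no gene names, so which window belongs to which receptor gene was not determined. Bisulfite sequencing was applied to the DNA of 20 single embryos. Of these, 10 blastocysts (replicates 11 to 20) are labelled Padi6-mutant and, per the series' design text, come from oocytes that carry the P620A mutation of Padi6. The other 10 (replicates 1 to 10) are labelled control. Strain, age in days, litter, sex and the embryo's own genotype are not in the labels, nor is it said which embryos had the same mother, and p-values cover only the spread among the embryos measured. Embryos that did not reach the blastocyst stage are not represented. A whole blastocyst mixes cells of the inner cell mass with trophectoderm, and the levels are averages over both.

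Olfactory receptors are G protein-coupled receptors that olfactory sensory neurons use to detect odorants, and each such neuron expresses a single allele of a single receptor gene. The genes lie in large tandem clusters, are silent in most other tissues, and have promoters that lack the CpG islands typical of housekeeping genes. In mammals DNA methylation is placed mainly on the cytosine of CpG dinucleotides and is largely erased and only partly kept during the cleavage divisions, when the maintenance methyltransferase DNMT1 and its partner UHRF1 copy it to new strands. PADI6 is made in the oocyte, belongs to the subcortical maternal complex and reaches the early embryo through the egg. No expression values were analysed here, so whether these promoters were silent in the blastocysts was not checked.

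Promoter sequences are shown to make plain how few CpG dinucleotides lie around the annotated starts of such genes. They are from RefSeq on build GRCm38.p6, cover 250 bases before and 50 after the annotated gene start (300 bases in all), and are printed from 5′ to 3′ with every CG in capitals. Their coordinates were not joined to the windows, which are on another build and 3500 bp long. The number of CG in the windows themselves was not counted. In the longest run of receptor genes on each chromosome of that build, with starts no more than 1 Mb apart, the table held 187 promoters on chromosome 2 and 80 on chromosome 9. The first promoter with the median number of CG and the first with the highest number are given for each run, and the promoter of Pcna, the replication clamp, serves as a CpG-rich comparison from chromosome 2.
Olfr988 (chr2:85353875-85354174, minus strand, 1 CG): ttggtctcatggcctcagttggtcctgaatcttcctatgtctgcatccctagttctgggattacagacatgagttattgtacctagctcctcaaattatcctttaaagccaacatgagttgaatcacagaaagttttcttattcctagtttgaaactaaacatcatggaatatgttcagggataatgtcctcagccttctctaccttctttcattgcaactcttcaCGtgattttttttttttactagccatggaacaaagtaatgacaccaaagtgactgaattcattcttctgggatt
Olfr1212 (chr2:88958218-88958517, plus strand, 7 CG): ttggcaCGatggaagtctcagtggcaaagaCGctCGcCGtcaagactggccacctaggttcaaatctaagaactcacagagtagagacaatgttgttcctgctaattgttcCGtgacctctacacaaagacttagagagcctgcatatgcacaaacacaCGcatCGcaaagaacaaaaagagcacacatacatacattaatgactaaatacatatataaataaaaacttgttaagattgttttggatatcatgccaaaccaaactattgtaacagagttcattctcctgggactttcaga
Olfr881 (chr9:37992242-37992541, plus strand, 1 CG): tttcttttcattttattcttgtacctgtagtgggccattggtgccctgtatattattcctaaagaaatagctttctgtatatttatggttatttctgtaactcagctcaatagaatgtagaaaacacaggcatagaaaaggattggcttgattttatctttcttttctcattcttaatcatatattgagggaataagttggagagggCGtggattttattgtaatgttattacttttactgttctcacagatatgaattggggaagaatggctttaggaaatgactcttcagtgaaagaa
Olfr976 (chr9:39960995-39961294, minus strand, 8 CG): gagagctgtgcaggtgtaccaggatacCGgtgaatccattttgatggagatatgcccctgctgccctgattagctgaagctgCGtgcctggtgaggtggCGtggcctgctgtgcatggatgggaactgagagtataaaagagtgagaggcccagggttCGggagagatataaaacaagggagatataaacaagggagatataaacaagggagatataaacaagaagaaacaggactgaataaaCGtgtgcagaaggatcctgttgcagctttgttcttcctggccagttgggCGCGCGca
Pcna (chr2:132253131-132253430, minus strand, 26 CG): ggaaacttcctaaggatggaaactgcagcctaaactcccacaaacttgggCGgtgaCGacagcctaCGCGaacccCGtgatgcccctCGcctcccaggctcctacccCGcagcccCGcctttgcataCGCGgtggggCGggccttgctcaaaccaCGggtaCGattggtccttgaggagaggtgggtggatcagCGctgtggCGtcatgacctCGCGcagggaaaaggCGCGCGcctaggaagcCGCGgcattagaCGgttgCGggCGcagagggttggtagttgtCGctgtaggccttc

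The median number of CG was 1 in both runs of receptor promoters, against 8 in the 31903 promoters of other genes. No CG at all was found in 67 of the 187 chromosome 2 promoters (35.8%) and in 24 of the 80 chromosome 9 promoters (30%), against 1467 of the 31903 others (4.60%). At most 2 were found in 90.9% and 87.5% of the receptor promoters, against 21.5% of the others. A count of 10 or more was found in 0% of both runs, against 44.8% of the others. The receptor promoters were also poor in G and C, with medians of 32% and 35.5%, against 53.3%. The annotated length of 139 of the 186 receptor genes in the chromosome 2 run and of 59 of the 79 in the chromosome 9 run is a multiple of 3, a share of 74.7% in both, against 34.3% of other genes. Many of these gene models may therefore begin at the start codon, and the true transcription start can lie further upstream. The letters CG read the same on both strands, so 1 count covers both.

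The cluster promoters were thinly covered. All 20 embryos had a value in a smaller share of the cluster windows than of the windows outside the clusters. On chromosome 2, mutant embryos had a value in 0.656% to 47.2% of the 305 windows (median 6.07%), against 5.36% to 81.4% of the windows outside the clusters (median 23.0%). Control embryos had a value in 3.28% to 58.7% of them (median 33.6%), against 9.28% to 87.1% outside (median 69.2%). On chromosome 9, mutant embryos had a value in 0.730% to 43.1% of the 137 windows (median 6.20%) and control embryos in 0.730% to 57.7% (median 31.8%). The ranges of the groups overlapped in both clusters.

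Coverage of the whole table differs widely between embryos. Over 20000 windows had a value in 3 mutant embryos (replicates 11, 12 and 14) and in 6 control embryos (replicates 1 to 5 and 10), here called densely covered. The other 7 mutant and 4 control embryos, with 2875 to 13847 and 4984 to 17002 windows, are called sparsely covered. Among densely covered embryos the cluster on chromosome 2 had a value in 39.6% ± 10.3 of its windows in mutant embryos (SD, n = 3) and 46.5% ± 11.1 in control embryos (SD, n = 6). The matching shares on chromosome 9 were 40.6% ± 3.60 and 45.1% ± 11.4, and outside the clusters 76.8% ± 4.86 and 79.3% ± 8.01.

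**Figure D1:**
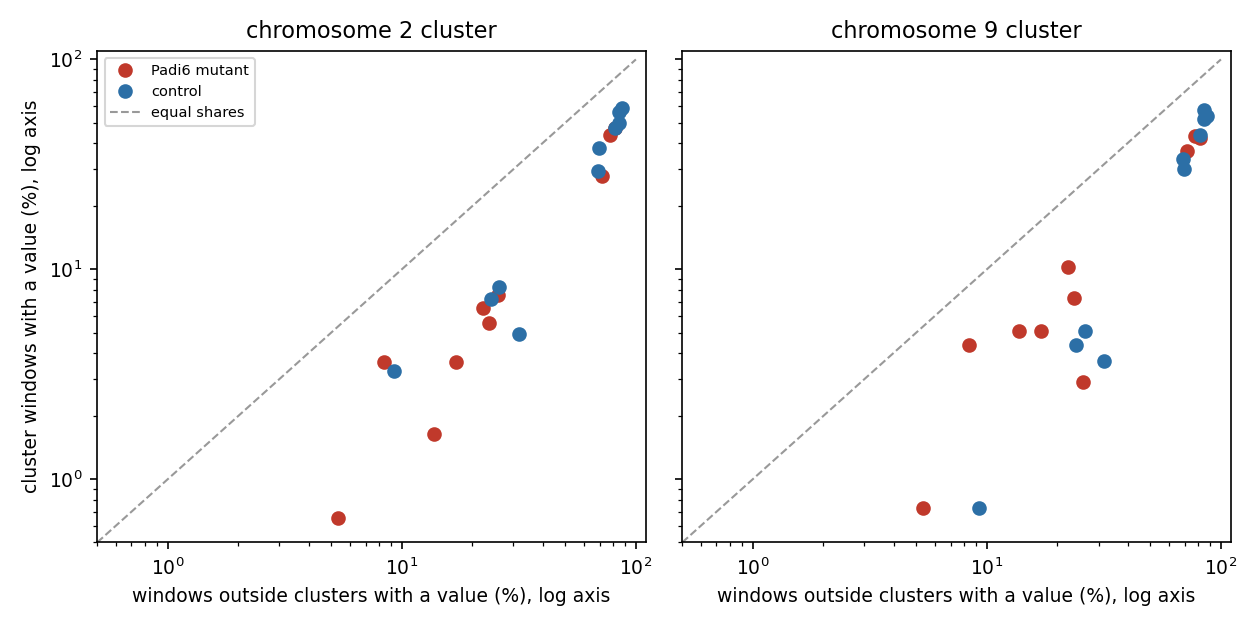
Share of the cluster windows with a value (vertical, log axis, percent) against the share of windows outside the clusters with a value (horizontal, log axis, percent), a point per embryo, for the chromosome 2 cluster (left) and the chromosome 9 cluster (right). All 20 embryos lie below the dashed line of equal shares in both panels.

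The share of windows with a value was set against that outside the clusters in the same embryo, as the log2 of their ratio with 0.01 added to each share, and tested for 533 regions with limma (the 2 clusters and 5 Mb bins of the rest of the genome). In mutant embryos it was -1.55 (SE 0.16, limma adjusted p = 0.000114) for the chromosome 2 cluster and -1.36 (SE 0.18, limma adjusted p = 0.000272) for the chromosome 9 cluster, with 10 of 10 embryos below 0 in each. In control embryos it was -1.16 (SE 0.17, limma adjusted p = 0.00117) and -1.48 (SE 0.25, limma adjusted p = 0.00117), again with 10 of 10 embryos below 0. Lower coverage than outside the clusters was called in 37.3% of all regions in mutant embryos and 34.9% in control embryos. Ordered from the best to the least covered region, the clusters ranked 508 and 494 of 533 in mutant embryos and 512 and 524 in control embryos. The groups did not differ in this ratio beyond their spread, by -0.39 (SE 0.25, limma adjusted p = 0.655) on chromosome 2 and 0.11 (SE 0.32, limma adjusted p = 0.901) on chromosome 9, and limma called 0% of the 533 regions in that comparison, with 39 at an unadjusted p under 0.05.

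Values of single windows were rarely shared by many embryos. The median cluster window had a value in 4 of the 20 embryos on either chromosome, against 10 outside the clusters, and the most widely covered one in 13 on chromosome 2 and 10 on chromosome 9. Both groups had a value in 229 of the 305 windows on chromosome 2 and in 110 of the 137 on chromosome 9. Values were confined to mutant embryos in 11 and 4 windows, and to control embryos in 65 and 23. Of the 53592 windows outside the clusters, 414 had values in mutant embryos only and 2212 in control embryos only. More control than mutant embryos were densely covered (6 against 3), so these counts do not mark windows particular to a group. In 41 windows on chromosome 2 (13.4%) and 21 on chromosome 9 (15.3%), 3 or more mutant and 3 or more control embryos had a value, against 70.1% of windows outside the clusters. With at least 5 of each group the numbers were 6 and 1, and with at least 7 there were none. Of the cluster windows, 54 and 28 overlap another one, so that neighbouring values can come from the same reads. A window without a value in any embryo does not occur in the table, so all shares are of the listed windows.

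The mean level of the cluster promoters was above that of the promoters outside the clusters, in control and in mutant embryos. The excess passed the test in control embryos only, and those calls depended on which embryos entered. The level of a cluster in an embryo is the mean of all its values there, given for embryos with at least 3 values. On chromosome 2, mutant embryos stood at 17.4% ± 8.55 (SD, n = 9), with a lowest level of 6.86%, a median of 15.9% and a highest of 30%. Control embryos stood at 20.2% ± 3.04 (SD, n = 10), with a lowest level of 16%, a median of 19.9% and a highest of 25.0%. The mutant embryos spread on both sides of the control range: 5 of 9 lay below the lowest control embryo and 2 above the highest. Those 2 were the sparsely covered replicates 15 and 20, with 20 and 5 values. Among densely covered embryos, 2 of 3 mutant embryos lay below all 6 control embryos and 0 above. The share of sparsely covered embryos differed between the groups (6 of 9 mutant, 4 of 10 control), so the SDs of the groups are not alike in coverage. Mutant replicate 17 had 2 values there, both 100%, and was left out.

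On chromosome 9, mutant embryos stood at 17.3% ± 12.7 (SD, n = 9), from 0% to 37.5% with a median of 16.1%. Control embryos stood at 29.6% ± 12.3 (SD, n = 9), from 17.2% to 48.3% with a median of 22.7%. Here 5 of 9 mutant embryos lay below the lowest control embryo and none above the highest. Outside the clusters 4 of 10 mutant embryos lay below the lowest control embryo and 0 above the highest. On chromosome 9 mutant replicate 17 and control replicate 9 had 1 value each, both 0%, and were left out. Outside the clusters the level was 12.9% ± 2.90 in mutant and 15.4% ± 2.39 in control embryos (SD, n = 10 each). On the rest of chromosome 2 it was 12.5% ± 3.02 and 13.8% ± 2.09, and on the rest of chromosome 9 12.7% ± 3.07 and 15.2% ± 2.86 (SD, n = 10 each).

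**Figure D2:**
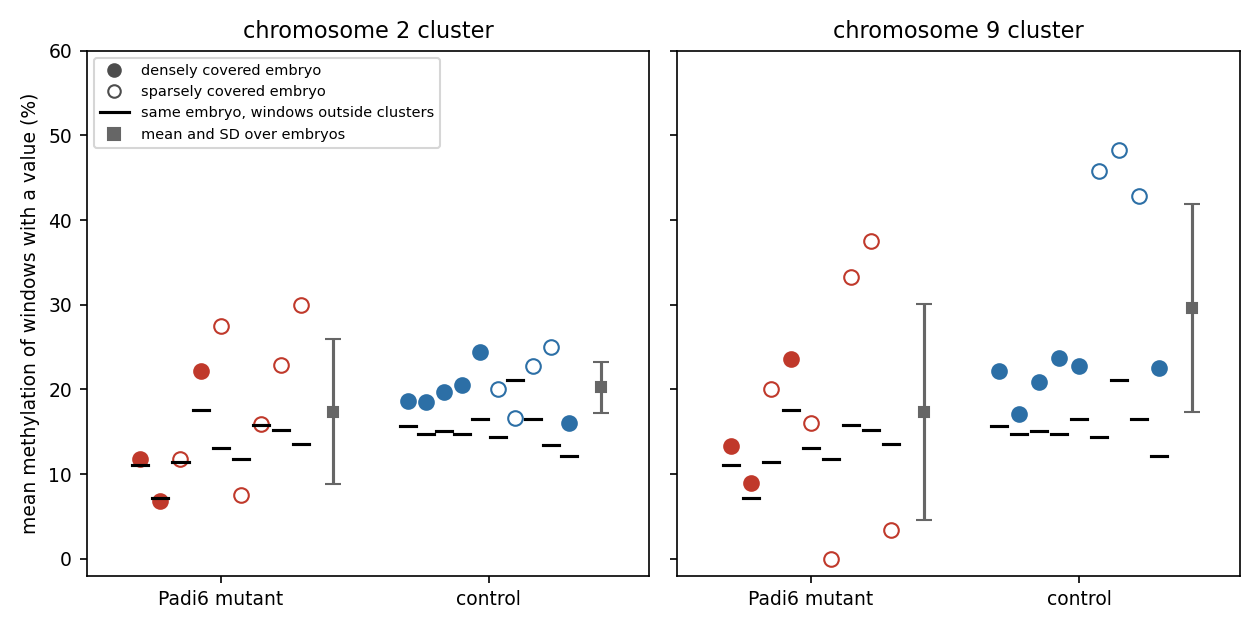
Mean methylation of the cluster windows with a value (percent) in each embryo with at least 3 values, for mutant and control embryos, with filled points for densely and open points for sparsely covered embryos. Black dashes give the mean of the same embryo outside the clusters, and squares with bars the mean and SD over embryos. Among densely covered embryos, mutant replicates 11 and 12 lie below and mutant replicate 14 within the range of the 6 control embryos in both panels.

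The excess over the same embryo's level outside the clusters was tested in each group across all regions. In mutant embryos it was 4.41 percentage points on chromosome 2 (SE 2.25, limma adjusted p = 0.563, higher in 7 of 9 embryos) and 4.37 points on chromosome 9 (SE 3.21, limma adjusted p = 0.653, higher in 7 of 9). Of 488 regions 0% were called in limma as higher in mutant embryos. Before adjustment 14 were higher and 27 lower at a p under 0.05. In control embryos it was 4.81 points on chromosome 2 (SE 1.32, limma adjusted p = 0.0484, higher in 9 of 10 embryos) and 13.9 points on chromosome 9 (SE 3.20, limma adjusted p = 0.0234, higher in 9 of 9). A level above that outside the clusters was called in 3.79% of the 528 regions tested in control embryos. The clusters ranked 60 and 4 among these, counted from the highest excess. Whether the excess differs between the groups is given by the comparison relative to the rest of the table further on.

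These calls depend on which embryos enter. On chromosome 2 the call was lost when any single control embryo other than replicate 7 was left out, with an excess of 4.06 to 5.02 points and limma adjusted p values of 0.0522 to 0.110. Without replicate 7, whose level outside the clusters was the highest of all embryos (21.1%), the excess was 5.84 points (limma adjusted p = 0.00549). On chromosome 9 the call was lost without control replicate 8 (12.4 points, limma adjusted p = 0.0548). In the 6 densely covered control embryos alone the excess was 4.84 points on chromosome 2 (SE 0.84, limma adjusted p = 0.00543) and 6.71 points on chromosome 9 (SE 1.07, limma adjusted p = 0.00442), and all 6 were higher in both clusters; 11.7% of the 531 regions were called higher in these embryos, among which the clusters ranked 47 and 20. In the 3 densely covered mutant embryos the excess was 1.69 points (limma adjusted p = 0.675) and 3.34 points (limma adjusted p = 0.480). Of 530 regions 0% were called higher in limma there. Before adjustment 30 were higher and 21 lower at a p under 0.05. In the sparsely covered control embryos it was 4.78 points (limma adjusted p = 0.573, n = 4) and 28.4 points (limma adjusted p = 0.0606, n = 3). The chromosome 9 level of those 3 embryos rests on 5, 6 and 7 values.

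No difference between mutant and control embryos passed the test in either cluster. On chromosome 2 mutant embryos differed from control embryos by -2.85 points (SE 2.89, 95% interval -8.80 to 3.10, limma adjusted p = 0.671, 5 of 9 mutant embryos below the control mean). On chromosome 9 they differed by -12.2 points (SE 5.15, 95% interval -22.9 to -1.60, unadjusted p 0.0260, limma adjusted p = 0.292, 7 of 9 below the control mean). Of the 488 regions tested, 2 passed the threshold (0.41%), both lower in mutant embryos, and neither was a cluster. Before adjustment 70 regions had a p under 0.05, 69 of them lower and 1 higher in mutant embryos. The median difference over all regions was -2.40 points and 78.7% were lower. Ordered from the largest loss, the chromosome 2 cluster ranked 226 and the chromosome 9 cluster 3.

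The size of the chromosome 9 difference depended on coverage. Among densely covered embryos, mutant replicates 11, 12 and 14 stood at 13.3%, 8.92% and 23.6%, against 17.2% to 23.7% (median 22.3%) in the 6 control embryos. The difference there was -6.26 points (SE 3.02, 95% interval -12.4 to -0.16, limma adjusted p = 0.306). Among sparsely covered embryos it was -27.3 points (SE 7.65, limma adjusted p = 0.30, n = 6 and 3), and all 6 mutant embryos lay below the lowest of the 3 control embryos. These levels rest on 4 to 14 values in mutant and 5 to 7 in control embryos. Outside the clusters 4 of 7 sparsely covered mutant embryos lay below the lowest of the 4 sparsely covered control embryos. With embryos weighted by their number of values the chromosome 9 difference was -6.89 points (SE 2.94, limma adjusted p = 0.204). Leaving out single embryos gave -14.8 to -9.89 points with limma adjusted p values of 0.143 to 0.467.

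On chromosome 2 the densely covered mutant replicates 11, 12 and 14 stood at 11.8%, 6.86% and 22.2%, against 16% to 24.5% (median 19.2%) in the 6 control embryos. The difference was -6.04 points (SE 3.06, 95% interval -12.2 to 0.14, limma adjusted p = 0.343). In both clusters replicates 11 and 12 lay below all 6 control embryos and replicate 14 lay within their range. Outside the clusters these 3 mutant embryos stood in the same order, at 11.1%, 7.15% and 17.5%, against 12.1% to 16.5% (median 14.9%) in the densely covered control embryos. Replicate 14 lay above all 6 of them there. Among sparsely covered embryos the chromosome 2 difference was -1.84 points (SE 4.94, limma adjusted p = 0.931, n = 6 and 4). Weighting embryos by their number of values gave -4.82 points (limma adjusted p = 0.199). Levels from deviations from the window means gave -0.65 points (limma adjusted p = 0.955, n = 9 and 9). Those levels use only the 41 windows measured in 3 or more embryos of each group. Leaving out single embryos gave -4.43 to -1.54 points, the lowest without mutant replicate 20 and the highest without mutant replicate 12.

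The clusters were not shown to differ between the groups more than the rest of the table did. With each embryo's level outside the clusters subtracted, mutant embryos differed from control embryos by -0.40 points on chromosome 2 (SE 2.59, 95% interval -5.77 to 4.97, limma adjusted p = 0.967) and by -9.56 points on chromosome 9 (SE 4.76, 95% interval -19.5 to 0.33, limma adjusted p = 0.590). In this comparison 1 of 488 regions was called (0.205%). Among densely covered embryos the relative differences were -3.15 points (SE 1.5, limma adjusted p = 0.373) and -3.37 points (SE 1.79, limma adjusted p = 0.430). The 95% intervals of the main comparison leave room for a relative loss of several points in either cluster, so a p over the threshold does not show that the clusters behaved like the rest.

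In densely covered embryos most values in the clusters were exactly 0, and those between 0% and 100% averaged higher than outside the clusters. In densely covered mutant embryos 240 of 362 values on chromosome 2 (66.3%) and 104 of 167 on chromosome 9 (62.3%) were exactly 0, against 46.3% outside the clusters. In densely covered control embryos 443 of 851 (52.1%) and 198 of 371 (53.4%) were exactly 0, against 41.2% outside. Values of 50% or more made up 17.4% and 20.4% in mutant embryos, against 8.96% outside, and 22.9% and 28.8% in control embryos, against 12% outside. Values between 0% and 100% averaged 37.8% and 39.7% in mutant and 36.7% and 42.2% in control embryos, against 21.1% and 23.4% outside the clusters. In sparsely covered mutant embryos 67.4% and 75.5% of values were exactly 0, against 70.7% outside. In sparsely covered control embryos 68.1% and 36.8% were, the latter of 19 values, against 64.5% outside. The files give no read counts, and with few CpG sites or reads in a window the level can take few values. These shares were not tested.

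**Figure D3:**
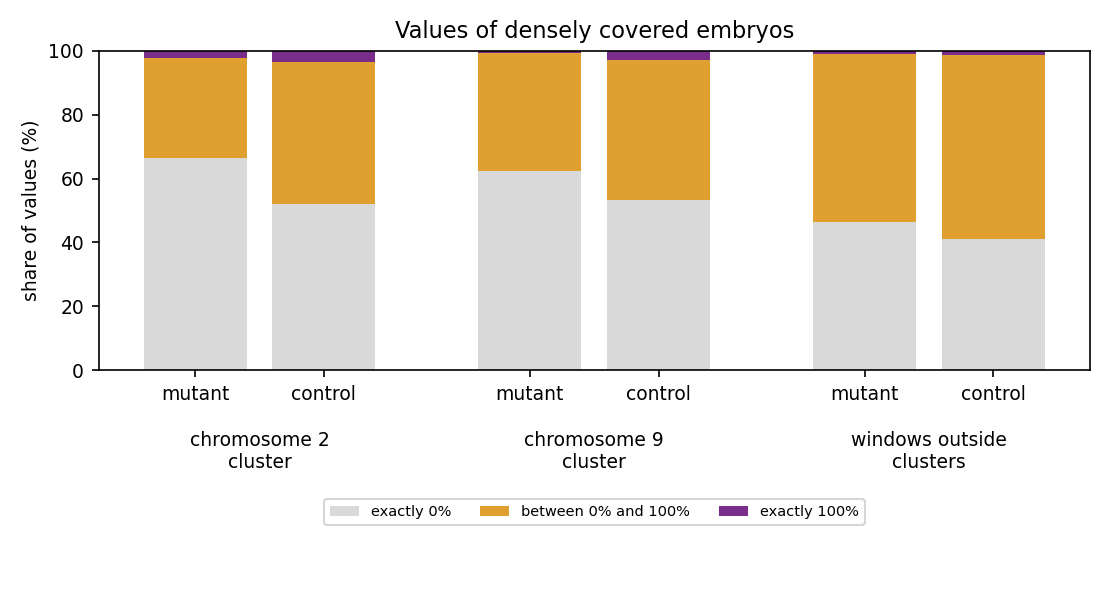
Share of values (percent) that were exactly 0%, between 0% and 100%, or exactly 100%, over all values of the 3 densely covered mutant and the 6 densely covered control embryos, in each cluster and in the windows outside the clusters. Zeros made up 66.3% of the mutant and 52.1% of the control values on chromosome 2.

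The spread of single cluster windows over embryos was wide. These windows were thinly covered and their depth is unknown. Differences between embryos therefore cannot be told apart from the coarse steps that few calls give. Taking windows measured in 3 or more embryos of the group, the median SD between embryos was 24.5 points in mutant and 22.4 points in control embryos on chromosome 2, and 13.5 and 25.1 points on chromosome 9. Outside the clusters it was 12.1 and 14.3 points. Window means spanned 0% to 50.0% in mutant embryos (48 windows) and 0% to 83.3% in control embryos (182 windows) on chromosome 2. On chromosome 9 they spanned 0% to 55.6% in mutant embryos (28 windows) and 0% to 60.4% in control embryos (75 windows). Means of 10% to 50% were found in 60.4% of these windows in mutant and 69.2% in control embryos on chromosome 2, in 42.9% and 70.7% on chromosome 9, and in 45.1% and 49.6% outside the clusters. A mean of 50% or more was held by 2 of 48 mutant windows (4.17%) and 10 of 182 control windows (5.49%) on chromosome 2. On chromosome 9 it was held by 1 of 28 (3.57%) and 5 of 75 (6.67%). Outside the clusters the shares were 1.35% and 3.78%. The windows that qualify differ between the groups, so these shares describe each group and were not compared by a test.

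Methylation was spread along both clusters. In steps of 0.5 Mb, the values of the densely covered mutant embryos averaged 8.48% to 20.2% over the 10 steps of the chromosome 2 cluster, and those of the control embryos 14.2% to 27.5%. Over the 5 steps of the chromosome 9 cluster they averaged 9.45% to 23.7% in mutant and 17.4% to 23.2% in control embryos. The mutant average was the lower one in 9 of 10 steps on chromosome 2 and in 4 of 5 on chromosome 9. Outside the clusters the densely covered mutant embryos also had the lower mean, 11.9% ± 5.24 against 14.8% ± 1.47 (SD, n = 3 and 6). The steps share the same embryos and are not independent, and the ranges over embryos overlapped in every step.

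**Figure D4:**
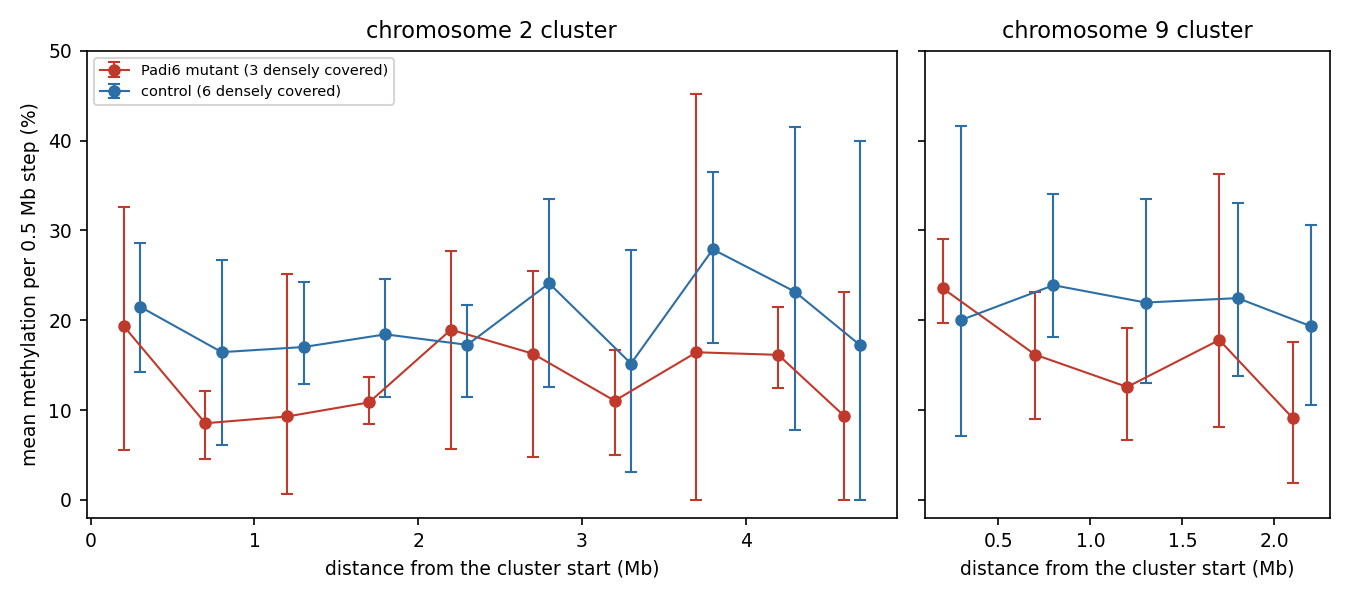
Mean methylation per 0.5 Mb step (percent) against the distance from the cluster start (Mb) for the 3 densely covered mutant and 6 densely covered control embryos, in the chromosome 2 cluster (left) and the chromosome 9 cluster (right). Points are means of the embryo means and bars run from the lowest to the highest embryo; the mutant mean is the lower one in 9 of 10 and 4 of 5 steps.

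No single cluster window differed between the groups after correction. The limma fit covered the 37645 windows of the table that 3 or more mutant and 3 or more control embryos had measured, of which 14 passed the threshold (0.0372%). Of the 41 tested windows on chromosome 2 and the 21 on chromosome 9, 0 passed, and the smallest limma adjusted p was 0.780 and 0.18. Before adjustment, 4 windows on chromosome 2 had a p under 0.05 (2 lower, 2 higher in mutant embryos) and 3 on chromosome 9 (3 lower). Over all tested windows 5.75% did, 3.9% lower and 1.85% higher. With a variance trend and robust fitting limma called 0 of the 37645 windows. Before adjustment, 3 windows on chromosome 2 (0 lower, 3 higher in mutant embryos) and 5 on chromosome 9 (3 lower, 2 higher) then had a p under 0.05, against 1705 of all tested windows. The median difference was -2.50 points on chromosome 2 and -8.33 points on chromosome 9, against -1.07 points over all tested windows. The mutant mean was lower in 22 and higher in 18 of the 41, and lower in 13 and higher in 6 of the 21, against 55.8% lower over all tested windows.

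**Figure D5:**
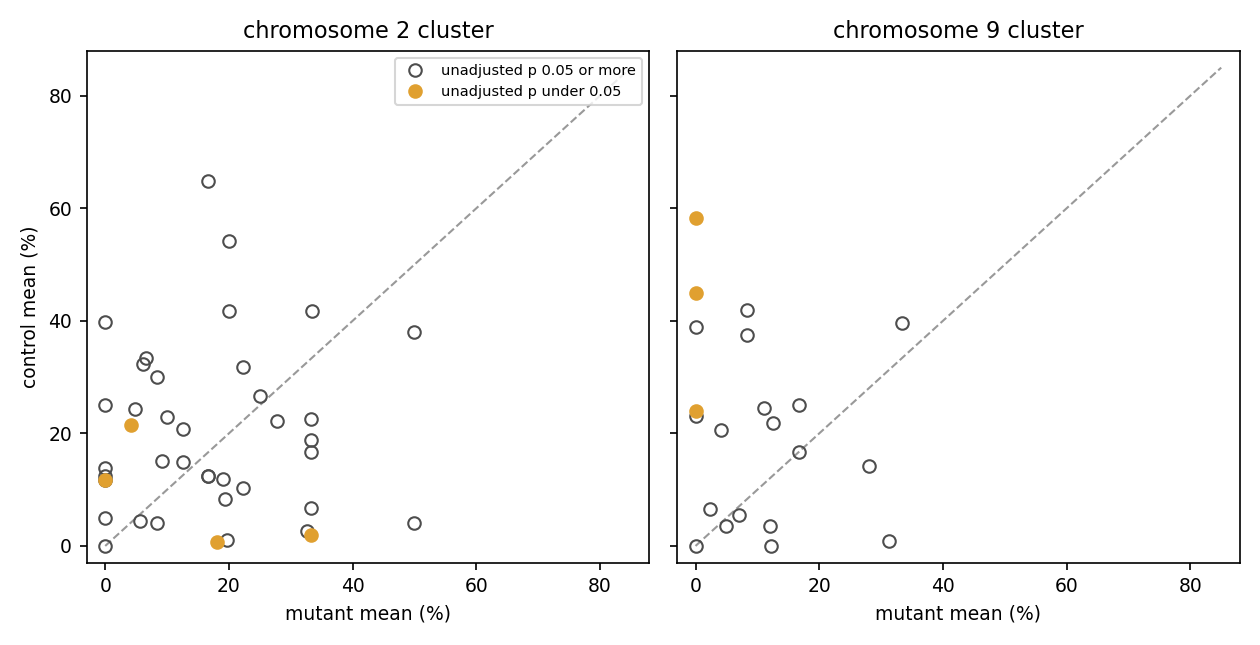
Mean methylation in mutant embryos (horizontal, percent) against that in control embryos (vertical, percent) for the 41 tested windows on chromosome 2 (left) and the 21 on chromosome 9 (right). Filled points have an unadjusted p under 0.05 and none passed after adjustment; points above the dashed line of equality are lower in mutant embryos.

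Widely covered windows of the chromosome 2 cluster show how far apart the values of single embryos lie. Those named here were also taken for the largest decreases among windows measured in 5 or more embryos of each group. Lower mutant means there follow from that choice. At chr2:86331005-86334504, 5 of 6 mutant embryos had 0% and replicate 14 had 60%, against 0%, 0%, 16.7%, 18.2%, 25%, 50% and 50% in the 7 control embryos with a value. The groups overlapped (-12.8 points, SE 11.9, limma adjusted p = 0.834, 5 of 6 mutant embryos below the control mean). At chr2:87110556-87114055, the 6 mutant embryos had 0%, 0%, 0%, 4%, 30% and 100%, against 0%, 8.33%, 25%, 27.8%, 50% and 80% in the 6 control embryos. Both groups ran from near the floor to high levels there (-9.52 points, SE 19, limma adjusted p = 0.900). At chr2:88993936-88997435, which had the highest control mean among cluster windows measured in 5 or more embryos of each group, 4 of 5 mutant embryos had 0% and replicate 15 had 100%, against 0%, 33.3%, 50%, 50% and 75% in the 5 control embryos (-21.7 points, SE 21.9, limma adjusted p = 0.836).

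Among chromosome 2 windows measured in 5 or more embryos of each group, the following windows had the lowest control means, near 0%, where a mutant mean can hardly be lower. At chr2:87063916-87067415, the 6 mutant embryos had 0%, 0%, 0%, 25%, 33.3% and 50%, against 0% in 6 and 5% in 1 of the 7 control embryos (17.3 points, SE 7.75, unadjusted p 0.0445, limma adjusted p = 0.834). At chr2:87354218-87357717, the 5 mutant embryos had 0%, 0%, 18.3%, 20% and 60%, against 0%, 0%, 0%, 2.41% and 2.94% in the 5 control embryos (18.6 points, SE 10.4, limma adjusted p = 0.834). In these windows 3 of 6 and 3 of 5 mutant embryos lay above every control embryo, and neither difference passed the test. Both windows were also taken for the largest increases among the 6 measured in 5 or more embryos of each group. Higher mutant values there follow from that choice and are no support for a gain. The other 3 chromosome 2 windows with an unadjusted p under 0.05 were picked once their values had been seen. At chr2:86007665-86011164, the 3 mutant embryos had 0%, 50% and 50%, against 0% in 4 and 10% in 1 of the 5 control embryos (31.3 points, SE 11.6, unadjusted p 0.0290, limma adjusted p = 0.780). At chr2:87132083-87135582, 3 of 4 mutant embryos had 0% and replicate 12 had 16.7%, against 9.09% to 40% with a median of 18.8% in the 5 control embryos (-17.4 points, SE 7.04, unadjusted p 0.0378, limma adjusted p = 0.825). At chr2:87390614-87394113, all 3 mutant embryos had 0%, against 0%, 10.5%, 11.1%, 16.7% and 20% in the 5 control embryos (-11.7 points, SE 4.83, unadjusted p 0.0450, limma adjusted p = 0.834). The groups overlapped in all 3 windows.

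On chromosome 9 the windows with values in the most embryos were chr9:39745172-39748671, chr9:37604811-37608310 and chr9:38983707-38987206. At the first, all 5 mutant embryos with a value had 0%, against 0%, 0%, 20%, 50% and 50% in the 5 control embryos (-24.0 points, SE 10.6, unadjusted p 0.0486, limma adjusted p = 0.834). At the second, the 4 mutant embryos had 0%, 0%, 50% and 75%, against 0% in 5 and 5% in 1 of the 6 control embryos (30.4 points, SE 13.9, limma adjusted p = 0.834). At the third, the 4 mutant embryos had 0%, 0%, 11.8% and 16.7%, against 0% in 4 of the 6 control embryos and 7.69% and 25% in the others (1.66 points, SE 6.01, limma adjusted p = 0.949). The groups overlapped in all 3.

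The smallest unadjusted p values among the cluster windows belonged to 2 windows on chromosome 9, picked once their values had been seen. At chr9:38395381-38398880, all 3 mutant embryos with a value (replicates 11, 12 and 15) had 0%, against 25% in 1 and 50% in 4 of the 5 control embryos. The groups did not overlap (-45.0 points, SE 6.55, unadjusted p 0.000194, limma adjusted p = 0.18). Without control replicate 1, the one at 25%, the window passed the threshold (-50.0 points, limma adjusted p = 0.00924). All mutant values were then 0% and all control values 50%, so neither group had any spread left. That pass adds no support, since the window was picked for its small p and the values are coarse. At chr9:38734841-38738340, the 3 mutant embryos (replicates 12, 14 and 20) had 0%, against 50%, 50% and 75% in the 3 control embryos (-58.3 points, SE 7.96, limma adjusted p = 0.255). Both windows rest on 3 mutant values each.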

How the data were processed

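Bisulfite reads of 10 Padi6-mutant and 10 control blastocysts were processed with Trim Galore 0.4.4 and Bismark 0.18.2 against GRCm39, as listed in the submitters' processing notes. In 1 table the authors deposited a methylation score in percent per promoter window and embryo. The sources used here do not give how calls were combined, any coverage minimum or the choice of windows, and without read counts the depth is unknown. Of 54080 rows, 46 repeats were dropped. Of the values, 1594 were whole numbers above 100, read as percents without their decimal point and divided by 1000; 0 of them lie in the clusters.

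Region levels are plain means of values. The clusters and 5 Mb bins of the rest, each with at least 20 windows and 7 embryos per group holding at least 3 values, were fitted with limma 3.58.1 (R 4.3.3; lmFit, eBayes) with Benjamini-Hochberg adjustment at 0.05 over all regions. Single windows were fitted with at least 3 embryos per group. Densely and sparsely covered embryos were also fitted apart, with at least 3 embryos per group, and single embryos were left out. The procedure was also run on measured values shuffled over embryos within each window, with known shifts added. Shuffling removes differences between whole embryos, and for the excess test unshuffled levels were centred beforehand. These runs therefore do not measure how many false calls to expect here. Windows named are those with values in the most embryos and, with at least 5 embryos per group, those with the highest and lowest control means and the largest changes, up to 3 of each per cluster, passing over a window that overlaps one already taken; others were added once their values had been seen. The members and lists were chosen with earlier results of these data known.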

Additional observations from a re-analysis of the deposited data

How the results depend on the processing

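No paired analysis was possible because the labels do not link mutant to control embryos by litter, mother or batch. Replicate numbers, 11 to 20 for mutant and 1 to 10 for control embryos, do not mark pairs. The difference between the groups passed the threshold in neither cluster under any alternative run. On chromosome 2 it turned to 3.85 points without values of exactly 0 and 100, where 5 mutant and 8 control embryos remained. Relative to the rest of the table, alternatives chosen after seeing the data, it was 0.99 points in sparsely covered embryos, 2.03 with deviations from window means, 2.14 with an additive window and embryo fit, 4.62 without 0 and 100, and -1.91 to 0.68 with single embryos left out. The cause was not tested. The chromosome 9 difference kept its sign and ran from -27.3 (sparsely covered) to -3.56 points (without 0 and 100), with -6.26 in densely covered embryos and -5.15 with at least 10 values per embryo; the 2 model-based levels could not be fitted there, since too few windows were shared. Levels above the rest in control embryos lost their call in sparsely covered embryos (4.78 and 28.4 points), and single embryos left out gave 4.06 to 5.84 points on chromosome 2 and 11.7 to 15.4 on chromosome 9. The coverage difference on chromosome 9 was -0.0676 (log2) when only values above 0 were counted. With single embryos left out, 0 to 1 windows passed on chromosome 9, the window at 87110556 ran from -25.1 to 0.11 points and that at 38983707 from -1.53 to 5.57. With at least 7 embryos per group no cluster window was left to test.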
